A study of Caenorhabditis elegans with 37 samples.

Results

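The genes described here are the cuticle collagens of C. elegans. Every gene whose symbol is col- with a number was taken, together with dpy-2, dpy-3, dpy-5, dpy-7, dpy-8, dpy-9, dpy-10, dpy-13, rol-6, sqt-1, sqt-3, bli-1 and bli-2, where at least 50 raw counts were summed over the 37 libraries. This left 162 of 169 candidate genes, among 30631 genes in the count table. The cuticle is the outer coat of the worm, a layered matrix made mostly of small collagens that the epidermis secretes and replaces at each moult. Sets of these genes are transcribed in turn within a moulting cycle, and others belong to a single stage such as the adult or the dauer larva, the long-lived alternative larva. Mutations in single members make animals short (dumpy), rolling, squat or blistered, from which the dpy, rol, sqt and bli genes have their names, and neurons are not known to build the cuticle.

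RNA was sequenced from FACS-sorted cells in 10 groups. The sorted neuron types were VD (4 libraries), DD (3), AVE (3), AVG (3), PVD (2), ASG (4), AWA (4) and AWB (5), and they were set against 5 pan-neuronal libraries, sorted by a Rab3 label, and 4 all-cell libraries, sorted by live and dead stains alone. ASG, AWA and AWB are sensory neurons of the head, AVE and AVG are interneurons, DD and VD are inhibitory motor neurons of the ventral cord, and PVD is a branched sensory neuron under the epidermis. All groups share untreated worms fed on NA22 bacteria on 8P plates, whereas no source used here gives their strain, transgene, sex, stage or age, or the promoter behind each label. Library numbers are those of the labels.

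Library totals ran from 251586 to 5415925 counts. Among the defining genes of the sorted types, odr-10, a receptor of AWA, averaged 5715 CPM in AWA libraries and gcy-21, a receptor guanylate cyclase of ASG, at 8607 CPM in ASG libraries. In AVE libraries glr-1 and nmr-1, glutamate receptor genes of command interneurons, averaged 191 and 47.1 CPM, beside 490 and 448 CPM in AVG and 81.5 and 56.7 CPM in pan-neuronal libraries, so that nmr-1 did not mark AVE libraries. Levels are given as CPM, the count of a gene scaled to library totals that were adjusted by TMM factors. All 12 pan-neuronal marker genes had counts in every group, and they summed to 0.559% ± 0.0888 of counts in VD and 0.417% ± 0.106 in AVE libraries, against 1.85% ± 0.286 in pan-neuronal libraries and 0.256% ± 0.103 in all-cell libraries (SD, n = 4, 3, 5 and 4).

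The members lay on all 6 chromosomes, with 41 on chromosome IV, 32 on V, 29 on II, 27 on X, 21 on I and 12 on III in the WBcel235 annotation. Just inside the threshold were col-121 with 50 counts, col-148 with 56 and col-56 with 68, and just outside were col-9 with 33, col-116 with 31 and col-78 with 28. The members were chosen by symbol and selected on these summed raw counts, and no comparison of groups entered the rule. After the filter on low counts 156 members were tested, and col-56, col-64, col-105, col-121, col-126 and col-148 were not.

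Collagens took a small share of all counts, with the lowest mean in pan-neuronal libraries as long as ASG 16 was kept. In pan-neuronal libraries the 162 members summed to 0.323, 0.633, 0.709, 0.668 and 0.648% of counts, and in all-cell libraries to 2.80, 4.08, 1.12 and 1.42%. These groups did not overlap. Among the types, VD libraries held 2.87, 2.92, 3.49 and 2.41%, all above every pan-neuronal library and inside the range of the all-cell libraries. ASG libraries held 0.464, 0.376, 0.570 and 2.05%, so that 3 of 4 lay within the pan-neuronal range and ASG 16 stood apart. Without ASG 16 the ASG mean fell from 0.864% to 0.470%, under the pan-neuronal mean of 0.596%.

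Libraries of 1 group differed widely. AVG libraries held 4.25, 2.95 and 0.900%, AWA libraries 0.318, 1.505, 0.981 and 3.21% and PVD libraries 2.05 and 0.805%. AVE libraries held 1.053, 1.52 and 1.03%, AWB libraries 1.23, 2.07, 2.43, 1.01 and 1.76% and DD libraries 1.33, 2.48 and 1.55%, with every library of these 3 groups above the pan-neuronal range. In bulk samples fewer cells of a type and less RNA per cell cannot be told apart.

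**Figure D1:**
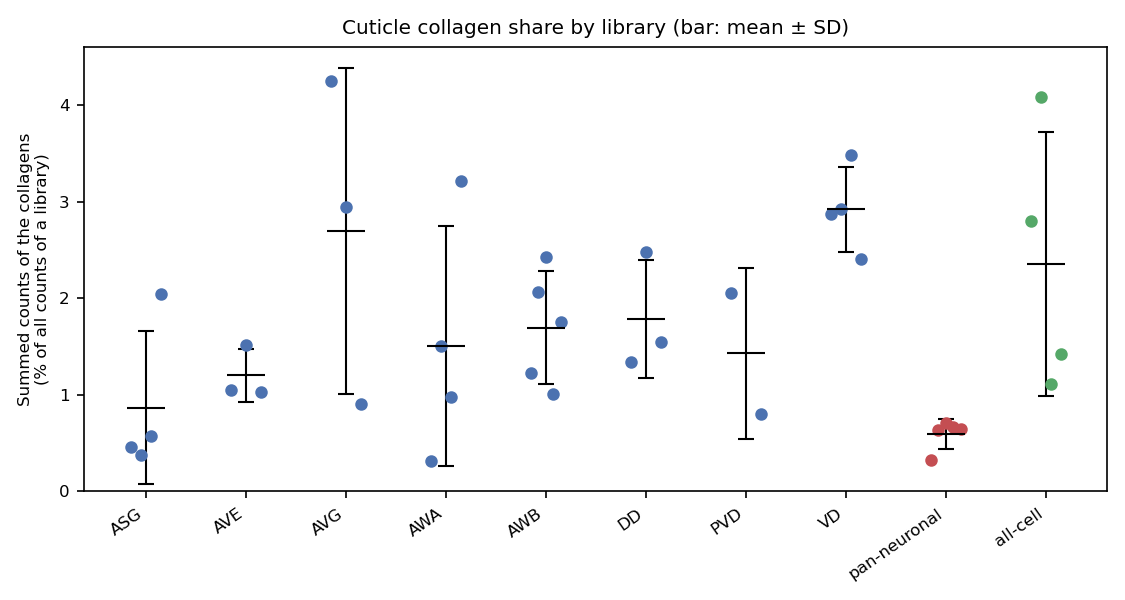
Summed raw counts of the 162 collagens as a percentage of all counts (vertical axis, linear), by group (horizontal axis); each point is 1 library, long bars are means and whiskers SD. Blue points are sorted types, red pan-neuronal and green all-cell libraries; the VD libraries lie between 2.41% and 3.49%, the pan-neuronal ones between 0.323% and 0.709%.

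The summed share of epidermal markers was also above the pan-neuronal level in most types with more collagen. The 14 epidermal genes that are not collagens, among them nhr-23, blmp-1 and noah-2, had counts in every group, and none of the 14 was at 0. Not all of the 14 went the same way against pan-neuronal libraries. The epidermal regulator elt-1 was called lower in 5 types and higher in 0, and fbn-1 higher in 3 and lower in 1. The rest were called lower in no type, with blmp-1, noah-2 and qua-1 called higher in 7. The summed share of the 14 was 0.397, 0.431, 0.414 and 0.346% in VD libraries, 0.134, 0.267 and 0.221% in DD libraries and 0.0575, 0.488, 0.215, 0.145 and 0.221% in AWB libraries, against 0.0247, 0.0299, 0.0273, 0.0262 and 0.0257% in pan-neuronal libraries. In AVE, AVG and PVD libraries every value lay above the pan-neuronal range, at 0.104, 0.0686 and 0.0846%, 0.0637, 0.164 and 0.0461% and 0.136 and 0.0556%.

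ASG libraries, at 0.0193, 0.0240, 0.0222 and 0.0161%, all lay below the pan-neuronal values. AWA libraries held 0.0103, 0.0199, 0.113 and 0.0977%, with AWA 17 and AWA 18 below the pan-neuronal range and AWA 19 and AWA 20 above it. All-cell libraries held 0.0448, 0.289, 0.0978 and 0.124%. ASG 16, with a collagen share of 2.05%, had the lowest epidermal share of its group. Body-wall muscle genes also differed, with 7 of 7 present and 2.22% ± 0.167 of counts in AVE against 0.882% ± 0.111 in pan-neuronal libraries (SD, n = 3 and 5). The summed share of the 6 seam cell genes went the other way, at 0.0138% ± 0.00278 of counts in VD against 0.0313% ± 0.00213 in pan-neuronal libraries (SD, n = 4 and 5), with 1 of the 6 at 0 in pan-neuronal libraries. These genes were split. Against pan-neuronal libraries ceh-16 was called lower in 8 types and egl-18 and elt-6 in 6, whereas grd-10 was called higher in 6 and grd-13 in 5.

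Summed shares of markers of other cells were above the pan-neuronal level in VD libraries too. Intestinal genes held 0.315, 0.242, 0.456 and 0.273% of counts in VD, against 0.0557, 0.0302, 0.0304, 0.0382 and 0.0318% in pan-neuronal libraries, and pharyngeal muscle genes 0.140, 0.153, 0.159 and 0.181%, against 0.0335, 0.0209, 0.0191, 0.0211 and 0.0200%. Neither overlapped. Germline genes averaged 0.0748% ± 0.0381 in VD against 0.0215% ± 0.00452 in pan-neuronal libraries, coelomocyte genes 0.0185% ± 0.0162 against 0.00111% ± 0.000365 and glial genes 0.0139% ± 0.00379 against 0.00544% ± 0.00202 (SD, n = 4 and 5). DD libraries held 0.242% ± 0.0612 of intestinal genes (SD, n = 3). Single genes of these lists were split against pan-neuronal libraries. Of the glial genes, hlh-17 and mls-2 were called lower in 8 types, delm-2 higher in 5, ptr-10 and fig-1 higher in 4, and vap-1 in none. Of the coelomocyte genes, cup-4 was called higher in 1 type, and unc-122 higher in 1 and lower in 2. Of the germline genes, glh-1 was called higher in 5 types and him-3 lower in 1. The part of all these cells in the collagen values was not tested.

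The pan-neuronal libraries also differed from the other 32 in how neighbouring collagen genes were counted. The genes col-92, col-93 and col-94 lie within 1 stretch of chromosome III (10982139 to 10987873), and col-10 and col-144 lie side by side on chromosome V (9159586 to 9165307; WBcel235). In the other 32 libraries the raw counts of col-94 were equal to those of col-92 in 13 and at most 1.01 times them in the rest, and col-93 had 0.782 to 0.936 times those of col-92. In the 5 pan-neuronal libraries these ratios were 0.605 to 0.941 and 2.22 to 2.63, with no overlap. The ratio of col-144 to col-10 was 0.853 to 1.10 in pan-neuronal libraries and 0.831 to 1.03 in the others, so that these overlapped.

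**Figure D2:**
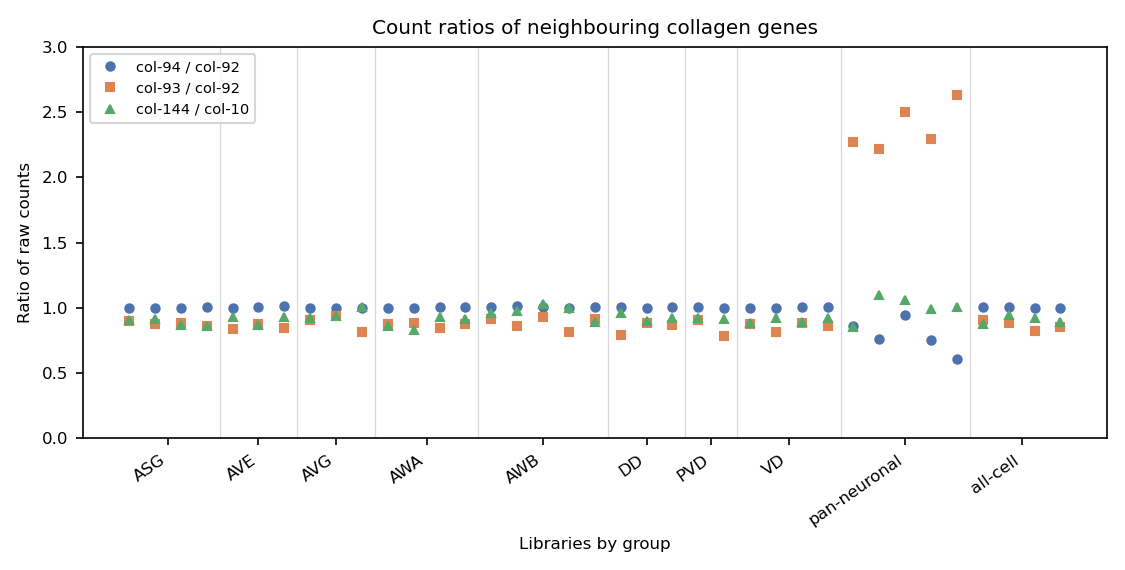
Ratio of raw counts of col-94 to col-92 (circles), col-93 to col-92 (squares) and col-144 to col-10 (triangles) on a linear vertical axis, in each library, ordered by group. The circles lie at 1 or up to 1.01 and the squares at 0.782 to 0.936 outside the pan-neuronal group, which stands apart for both pairs.

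For these 5 genes, and for col-12, col-17 and col-119, the gene length in the deposited table was over 1.5 times the exon length in the WBcel235 annotation. It was 2998 bases against 1017 for col-94, 2431 against 966 for col-10 and 1938 against 1094 for col-17. Over all tested genes whose deposited length was under 0.95 times the annotated one, the median log2 difference of pan-neuronal against all-cell libraries was 1.36, it was 0.05 over genes of matched length, and it was -0.59 over genes whose deposited length was over 1.5 times the annotated one. Levels of the 8 members named above, and of the 11 tested members with a shorter deposited length, among them dpy-10, col-36 and col-87, are uncertain where pan-neuronal libraries enter. Whether the pan-neuronal libraries were counted with other settings or gene models is stated in no source used here and was not tested, and it would touch every comparison with them. Against pan-neuronal libraries, the 97 tested members of matched length had 57 higher and 4 lower in VD, 36 and 3 in AWB, 34 and 2 in AVG, 33 and 4 in DD, 22 and 6 in AWA, 16 and 2 in AVE and in PVD, and 3 and 7 in ASG. Higher were 58.8%, 37.1%, 35.1% and 34.0% of them in VD, AWB, AVG and DD. Of all genes of matched length 28.1%, 19.9%, 12% and 18.2% were. In AWA, AVE, PVD and ASG 22.7%, 16.5%, 16.5% and 3.09% of the members were higher, against 18.1%, 12.9%, 9.05% and 15.3%. Of all genes of matched length 29%, 24.2%, 20.2%, 21.4%, 20.2%, 21.1%, 14.1% and 21.6% were lower, in the order of types above.

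Against pan-neuronal libraries, collagens were called higher more often than lower in 7 of 8 types, with ASG the exception and with AWA near even without AWA 20. Calls came from a single quasi-likelihood model in edgeR with all 37 libraries and needed an adjusted p (Benjamini-Hochberg, 15181 genes) under 0.05. Counts of members for runs without a library stand without the share of all genes, which was not computed for those runs. In VD libraries 87 of the 156 tested members were higher and 6 lower (55.8% and 3.85%), where 27.7% of all genes were called higher and 28.5% lower. The median log2 difference was 1.76 over the members and 0.08 over all genes. Of the 97 members of matched length 58.8% were higher, against 28.1% of all genes of matched length.

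AVG libraries had 59 members higher and 3 lower, against 11.7% and 19.7% of all genes, with a median log2 difference of 1.78. AWB libraries had 59 higher and 6 lower, against 19.6% and 24.1%, with a median of 0.98. DD libraries had 53 higher and 7 lower, against 18.3% and 20.8%, with a median of 1.30. In these 3 types 37.8%, 37.8% and 34.0% of the tested members were called higher, above the share of all genes. The AVG count of members called in either direction was 62, and it was 30 without AVG 43 and 33 without AVG 44.

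PVD libraries had 30 higher and 3 lower, against 8.84% and 13.8% of all genes, but only 6 members were called without PVD 62. AVE libraries had 26 higher and 4 lower, against 13.1% and 20.5%, and 19 in all without AVE 41. AWA libraries had 29 higher and 8 lower, against 18% and 19.8%, but 9 higher and 8 lower without AWA 20. The 18.6% of members higher in AWA was near the 18% of all genes, and the 16.7% in AVE was a little above its 13.1%. ASG libraries had 9 higher and 12 lower, or 5.77% and 7.69%, both under the 16.8% and 20.8% of all genes, and a median of -0.09.

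**Figure D3:**
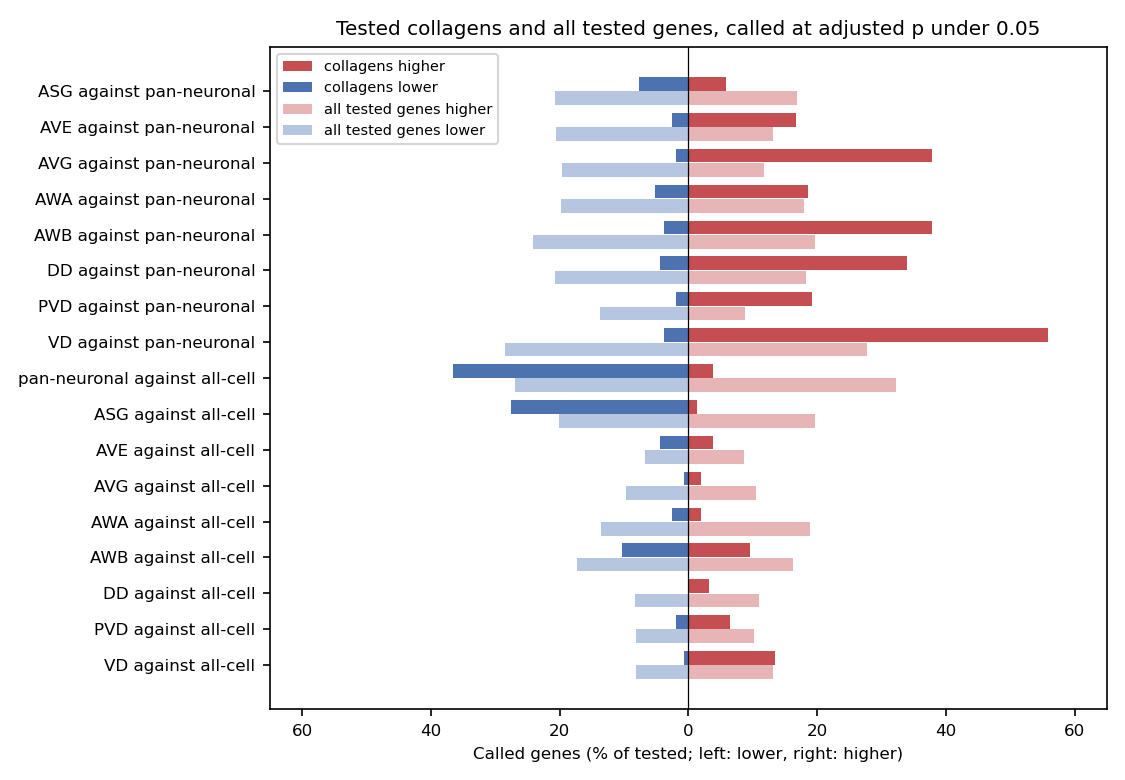
Percentage of the 156 tested collagens (dark bars, upper of each pair) and of all 15181 tested genes (pale bars, lower) called higher (right of 0) or lower (left of 0) in each comparison. Collagens exceed all genes most on the higher side for VD, AVG, AWB, DD and PVD against pan-neuronal libraries, at 55.8% of members in VD, and on the lower side for pan-neuronal and ASG against all-cell libraries.

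Pan-neuronal libraries had less collagen RNA than all-cell libraries. Of the 156 tested members 6 were higher and 57 lower (36.5%), against 32.2% and 26.9% of all genes, and the median log2 difference was -1.18. Of the 97 members of matched length 37 were lower, or 38.1%, against 26.4% of all genes of matched length. Without all-cell 28, which had the highest share of its group, 35 members were called in all, 29 of them lower.

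Against all-cell libraries, ASG was the type with the most members lower. It had 2 higher and 43 lower, against 19.6% and 20.1% of all genes, with a median log2 difference of -1.2. The count in either direction was 45, and it was 28 without ASG 14, 29 without ASG 13 and 64 without ASG 16. VD libraries had 21 higher and 1 lower, against 13.2% and 8.17% of all genes, so that the 13.5% of members called higher was close to the share of all genes. The VD count in either direction was 22, and it was 11 without all-cell 29, 12 without VD 78 and 37 without all-cell 28.

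AWB libraries had 15 higher and 16 lower, against 16.3% and 17.3% of all genes, and the 31 in all became 20 without AWB 51, AWB 52 or AWB 53. PVD had 10 higher and 3 lower against 10.2% and 8.08%, with 2 in all without PVD 62 and 8 without PVD 63 or all-cell 29. The PVD balance turned to 13 higher and 26 lower with DESeq2 and to 7 and 14 with the compared groups alone in the fit. AVE had 6 higher and 7 lower against 8.62% and 6.78%, with a split of 4 and 9 when scaled by library totals alone, and with 4 to 6 in all without any single AVE library or without all-cell 28, 29 or 30.

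DD had 5 higher and 0 lower against 10.9% and 8.33%, with 3 in all without DD 83, all-cell 29 or all-cell 30. AWA had 3 higher and 4 lower against 18.8% and 13.6%, with a split of 1 and 7 when scaled by library totals alone, and with 1 higher and 12 lower without AWA 20 and 4 in all without AWA 17 or all-cell 28. AVG had 3 higher and 1 lower against 10.5% and 9.71%, with 14 in all without all-cell 27 and 1 without all-cell 29 or all-cell 30. In these 6 types the shares of members called higher and lower lay under those of all genes. A difference was found among the 10 groups for 128 of the 156, or 82.1%, against 82.6% of all genes, so collagens did not stand out in that test.

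The furrow collagens, which shape the annular furrows of the cuticle, moved together. They are dpy-2, dpy-3, dpy-7, dpy-8, dpy-9 and dpy-10, and all 6 were called higher in AVG, AWB, DD and VD against pan-neuronal libraries. In VD, AWB and DD these calls were kept under every alternative run, and in AVG none of the 6 was kept without AVG 44 (adjusted p from 0.0896 for dpy-3 to 0.586 for dpy-8). In AVG 10 of 13 alternatives kept dpy-8 and dpy-10, 11 kept dpy-3 and 12 kept dpy-2, dpy-7 and dpy-9. The gene dpy-9 (chromosome IV, 257403 to 259204, minus strand) had 54.4, 58.8, 53.8 and 57.3 CPM in VD, 20.9, 83.6, 60.02, 63.1 and 62.05 in AWB and 20.7, 48.6 and 39.0 in DD libraries, against 2.37, 4.29, 4.07, 3.06 and 2.39 CPM in pan-neuronal libraries. Every library of the 3 types lay above every pan-neuronal one. The log2 differences were 4.09 ± 0.61, 4.13 ± 0.61 and 3.46 ± 0.63 (SE), with adjusted p of 2.42e-06, 2.36e-06 and 6.28e-05.

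The gene dpy-8 (chromosome X, 5148804 to 5150476, minus strand) had 121.5, 141, 132 and 118 CPM in VD and 77.5, 148, 106, 188 and 184 CPM in AWB libraries, against 17.4, 16.5, 7.41, 8.47 and 11.3 CPM in pan-neuronal libraries. Neither type overlapped the pan-neuronal libraries, with log2 difference 3.38 ± 0.60, adjusted p = 2.8e-05 in VD and log2 difference 3.52 ± 0.60, adjusted p = 1.89e-05 in AWB. The other furrow genes had log2 differences of 3.38 ± 0.66 (dpy-2), 4.08 ± 0.62 (dpy-3), 3.61 ± 0.61 (dpy-7) and 3.57 ± 0.62 (dpy-10) in VD. AVE had 3 of the 6 called higher, PVD 2, AWA 1 and ASG 0, and of those 6 calls only dpy-9 in AVE (log2 difference 2.63 ± 0.65, adjusted p = 0.00221) was kept under every alternative.

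The furrow genes were low in ASG libraries, and all 6 were called lower there than in all-cell libraries, a result kept under every alternative that tested them. These alternatives were 13 for dpy-3 and dpy-8 and 12 for dpy-2, dpy-7, dpy-9 and dpy-10. For dpy-10 (chromosome II, 6710149 to 6712227, minus strand), ASG libraries had 2.65, 4.80, 3.68 and 0 CPM, against 5.01, 48.8, 16.3 and 23.1 CPM in all-cell libraries (log2 difference -3.03 ± 0.76, adjusted p = 0.00197). The ASG values did not overlap those of all-cell libraries, of which all-cell 28 was the highest. The deposited length of dpy-10 was 0.807 times the annotated one. All 6 were also called lower in pan-neuronal than in all-cell libraries, with dpy-2, dpy-3 and dpy-9 kept under every alternative and dpy-7, dpy-8 and dpy-10 lost without all-cell 28 (adjusted p = 0.0533, 0.0789 and 0.116).

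The ratios between furrow genes varied little between libraries. Over the 32 libraries outside the pan-neuronal group, a chi-square per degree of freedom of the counts of each pair was 1.29 to 4.09 over 15 pairs, with a median of 2.26, where 1 is the value of a fixed ratio with counting error alone. Over all 9453 pairs of members with at least 300 counts the median was 51.7. Other pairs were as even, such as col-128 with each furrow gene (1.13 for dpy-8 to 1.90 for dpy-10) and col-164 with col-45 (1.13). The measure grows with the counts, and furrow genes have few, so the 2 medians are a description and not a test.

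The annulus collagens dpy-5 and dpy-13, needed for the ridges between furrows, were called higher in AVG, DD and VD than in pan-neuronal libraries, and dpy-5 also in AWB and ASG. The gene dpy-5 (chromosome I, 5432197 to 5433051, minus strand) had 729.5, 577, 706 and 703 CPM in VD and 569, 674 and 434 CPM in AVG libraries, against 8.68, 96.7, 147, 104 and 112 CPM in pan-neuronal libraries. All values of both types exceeded every pan-neuronal one, of which pan-neuronal 1 was the lowest. The log2 difference was 2.85 ± 0.64 in VD (adjusted p = 0.000378) and 2.57 ± 0.66 in AVG (adjusted p = 0.00325), and dpy-13 gave 2.59 ± 0.60 and 2.75 ± 0.63. These 4 calls were kept under every alternative. The DD call of dpy-13 was lost without DD 84 (adjusted p = 0.0923), DD 86 (0.0976) or pan-neuronal 1, 7 or 11 (0.0513 to 0.0744), and with DESeq2 size factors (0.0532). The AWB call of dpy-5 was lost without any 1 of AWB 51 to 54 or of pan-neuronal 1, 7, 11 and 12 (adjusted p 0.056 to 0.11).

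ASG 16 departed from its group for dpy-5, with 986 CPM against 59.0, 152 and 104 CPM in the other ASG libraries. The call of dpy-5 in ASG (log2 difference 1.79 ± 0.62) was lost without it (adjusted p = 0.914) and kept in 12 of 14 alternatives. In the same library 5 of the 6 furrow genes had no counts and dpy-8 had 2.12 CPM.

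**Figure D4:**
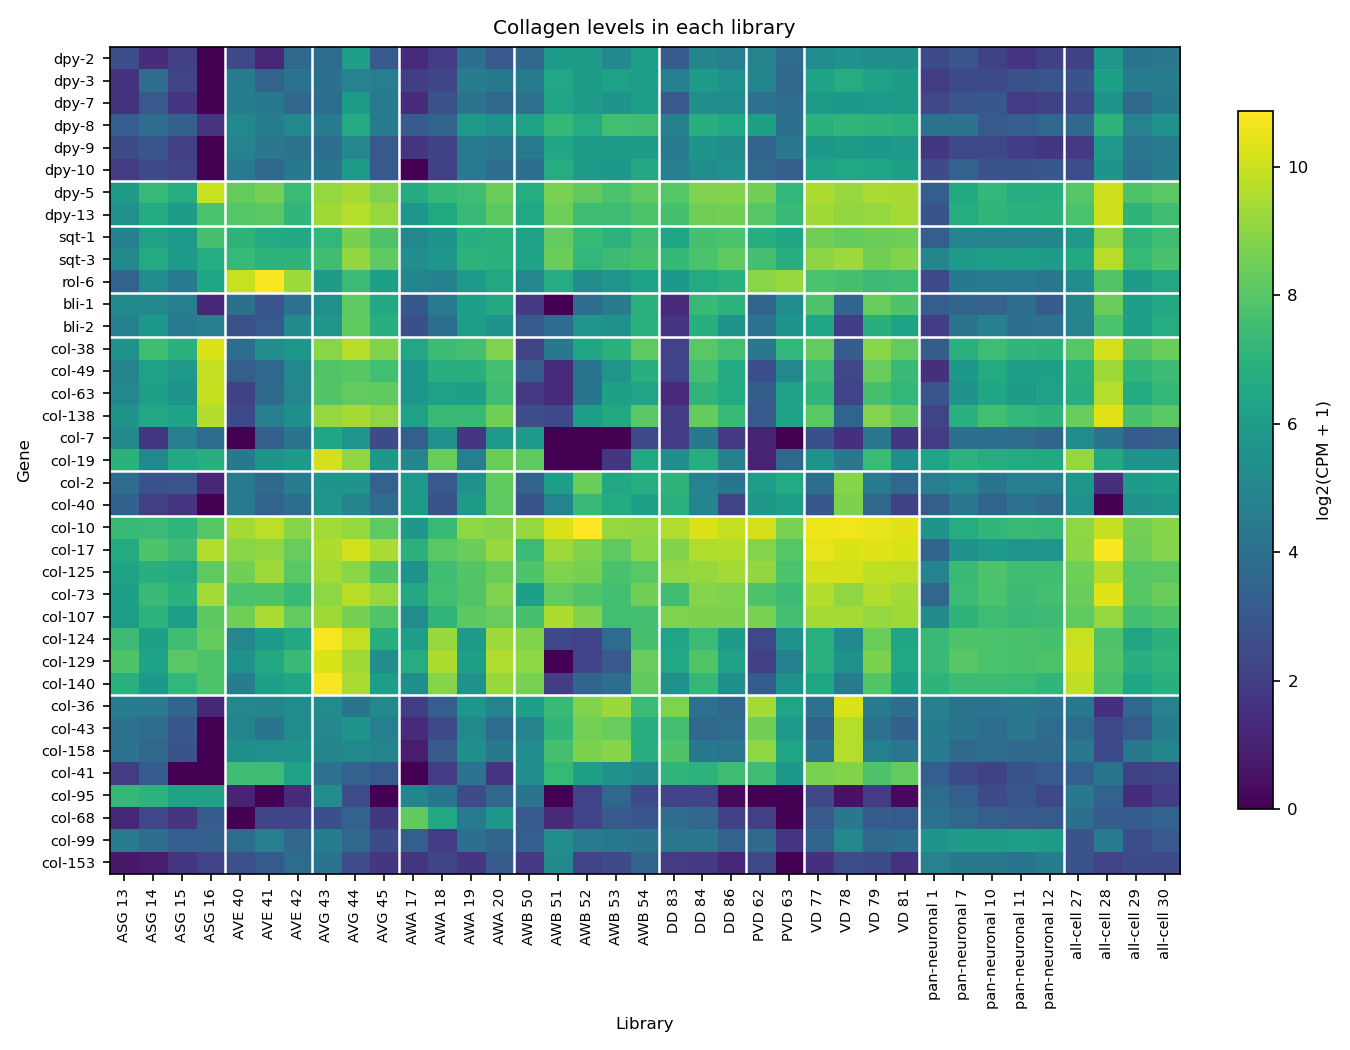
Levels as log2(CPM + 1) (colour) of collagens (rows) in each of 37 libraries (columns, by group). From the top, white lines part the furrow, annulus, shape, strut, adult, dauer, most abundant and unevenly expressed genes; the furrow rows brighten together, whereas col-36, col-43 and col-158 are brightest in VD 78 and dark in the other VD libraries.

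The genes sqt-1 and sqt-3, whose mutants are squat or short, were called higher in AVG, AWB, DD and VD. For sqt-1 (chromosome II, 11336693 to 11337837, minus strand), VD libraries had 379, 311, 342 and 357 CPM, AVG libraries 144.1, 393 and 232 CPM and DD libraries 82.7, 208 and 223 CPM, against 8.68, 28.7, 28.1, 26.8 and 30.4 CPM in pan-neuronal libraries. No library of these types overlapped them. It was called higher in all 8 types, with log2 difference 3.82 ± 0.56, adjusted p = 1.81e-06 in VD, and the calls in AVE, AVG, AWB, DD and VD were kept under every alternative. The calls in the other 3 types were kept in 13 of 14 alternatives in ASG, 13 of 15 in AWA and 8 of 12 in PVD. The call in ASG was lost without ASG 16 (adjusted p = 0.134), in AWA without AWA 20 (adjusted p = 0.0552) and in PVD, among others, without PVD 62 (adjusted p = 0.282).

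The gene sqt-3 (chromosome V, 12352745 to 12354320, plus strand) had 497, 610.1, 378 and 445 CPM in VD libraries, against 29.7, 57.3, 66.3, 71.3 and 63.5 CPM in pan-neuronal libraries, without overlap (log2 difference 3.06 ± 0.49, adjusted p = 6.16e-06). It was also higher in AVG (2.55 ± 0.51), DD (1.92 ± 0.50) and AWB (1.70 ± 0.46) libraries.

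The gene rol-6 (chromosome II, 8733050 to 8734239, plus strand), whose dominant alleles make animals roll, is given apart because such alleles are often used to mark transgenic worms. It had 984, 1732 and 622 CPM in AVE libraries and 480.3 and 582 CPM in PVD libraries, against 4.21, 20.2, 22.2, 20.7 and 19.1 CPM in pan-neuronal and 37.6, 242, 63.7 and 87.7 CPM in all-cell libraries. Both types lay above every library of all other groups, of which the highest was all-cell 28. Per kilobase of gene it was the highest member in AVE, at 956 CPM per kb of deposited and 1022 CPM per kb of annotated length. In PVD it was the highest on deposited length, at 456 CPM per kb, whereas on annotated length col-10, at 798 CPM per kb, was.

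The log2 difference of rol-6 from pan-neuronal libraries was 6.005 ± 0.62 in AVE (adjusted p = 1.57e-08) and 4.94 ± 0.62 in PVD (adjusted p = 1.36e-06). From all-cell libraries it was 3.37 ± 0.61 and 2.30 ± 0.64, the second lost without PVD 63 (adjusted p = 0.0954). It was also called higher in AVG, AWA, AWB, DD and VD than in pan-neuronal libraries, with the AWA call lost without AWA 20 (adjusted p = 0.118). Whether the AVE and PVD worms carried a rol-6 transgene is stated in no source used here and was not tested.

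The strut collagens bli-1 and bli-2 build the columns between the layers of the adult cuticle. For bli-1 (chromosome II, 10708960 to 10712156, plus strand), VD libraries had 225, 10.6, 318 and 230.1 CPM, against 8.41, 10.5, 9.63, 13.7 and 7.86 CPM in pan-neuronal libraries. VD 78 lay within the pan-neuronal range, and the other VD libraries were far above it (log2 difference 4.28 ± 1.02, adjusted p = 0.000723, kept under every alternative). DD libraries had 1.43, 162 and 128.6 CPM, with DD 83 below every pan-neuronal library, and the DD call was lost without DD 84 (adjusted p = 0.0584). In pan-neuronal against all-cell libraries, which had 30.1, 337, 66.5 and 86.7 CPM, bli-1 was lower by a log2 difference of -3.68 ± 0.997.

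Both strut genes were called higher in AVG libraries, at 42.2, 283 and 93.5 CPM for bli-1, with AVG 44 the highest, and both calls were lost without AVG 44 (adjusted p = 0.0994 for bli-1 and 0.0862 for bli-2). The call of bli-2 in VD (log2 difference 2.24 ± 0.82, adjusted p = 0.0215) was lost without VD 79 (adjusted p = 0.0682), and 11 of 14 alternatives kept it.

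Collagens of the adult cuticle differed widely between libraries of 1 group. None of col-7, col-19, col-38, col-49, col-63 and col-138 was called in any type against pan-neuronal libraries. For col-19 (chromosome X, 421707 to 422691, plus strand), a reporter gene of the adult epidermis, AVG libraries had 1099, 528 and 55.1 CPM and AWB libraries 284, 0, 0, 2.38 and 91.999 CPM, against 80.7, 127, 108, 98.1 and 96.0 CPM in pan-neuronal libraries. AVG 43 and AVG 44 were above them all and AWB 51 and AWB 52 had no counts. In AWA libraries it had 29.7, 325, 23.7 and 344 CPM, in PVD libraries 1.04 and 10.9 CPM and in all-cell libraries 565, 93.96, 45.1 and 45.3 CPM. The AWA and all-cell libraries lay on both sides of the pan-neuronal ones, and both PVD values lay below them.

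A second adult pattern was that of col-38 (chromosome II, 8568035 to 8569088, minus strand). It had 47.1, 185, 120.4 and 1248 CPM in ASG, 318, 7.96, 483 and 301 CPM in VD, 3.57, 268 and 192 CPM in DD and 3.69, 20.2, 84.7, 125.1 and 282 CPM in AWB libraries, against 8.15, 119.7, 181, 141 and 131 CPM in pan-neuronal and 258, 1151, 251 and 329.5 CPM in all-cell libraries. ASG 16 and all-cell 28 were the highest of the 37 libraries, and VD 78 and DD 83 were under 10 CPM beside 192 to 483 CPM in the other VD and DD libraries. AVE libraries had 14.03, 40.2 and 52.9 CPM, below every all-cell library. The AVE call against all-cell libraries (log2 difference -3.79 ± 1.30, adjusted p = 0.0436) was lost without any 1 AVE library (adjusted p 0.101 to 0.176) and without all-cell 28, and those of col-49, col-63 and col-138 likewise. Of 12 alternatives 6 kept the calls of col-38, col-49 and col-63, and 8 kept that of col-138.

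The dauer collagens col-2 and col-40 varied widely between libraries of 1 group. For col-2 (chromosome IV, 10084439 to 10085451, minus strand), VD libraries had 13.98, 474, 21.6 and 11.9 CPM, AWA libraries 55.5, 7.19, 46.8 and 299 CPM, AWB libraries 9.84, 64.8, 328, 90.6 and 109 CPM, PVD libraries 65.6 and 97.8 CPM and DD libraries 134, 27.5 and 17.4 CPM, against 23.9, 32.4, 17.4, 25.4 and 24.3 CPM in pan-neuronal and 53.5, 1.77, 61.4 and 69.4 CPM in all-cell libraries. VD 78, AWA 20, AWB 52 and DD 83 were the highest of their groups, and 4 of 5 AWB libraries and both PVD libraries exceeded every pan-neuronal one. The VD call of col-2 (log2 difference 2.39 ± 0.93) turned to -0.64 without VD 78 (adjusted p = 0.535), and that of col-40 (3.06 ± 1.07) to -0.85. Of 14 alternatives 9 kept the col-2 call and 13 that of col-40. All-cell 28, among the highest for adult genes, had 1.77 CPM of col-2 and 0 of col-40.

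Another set of genes, put together after their values were seen, was high in VD 78, PVD 62, DD 83, AWB 52 and AWB 53. Among them was col-36 (chromosome II, 7167511 to 7168812, minus strand). It had 15.6, 1217, 21.9 and 14.98 CPM in VD, 657 and 80.4 CPM in PVD, 427, 15.5 and 11.1 CPM in DD and 67.6, 163, 448, 596 and 173 CPM in AWB libraries, against 25.2, 16.9, 16.7, 19.8 and 16.4 CPM in pan-neuronal and 20.05, 1.77, 11.8 and 27.5 CPM in all-cell libraries. All 5 AWB libraries exceeded every pan-neuronal and all-cell library, whereas in VD and DD a single library did so. The deposited length of col-36 was 0.884 times the annotated one. The AWB calls were kept under every alternative, with log2 difference 3.92 ± 1.06, adjusted p = 0.00325 against pan-neuronal and log2 difference 4.21 ± 1.198, adjusted p = 0.00698 against all-cell libraries.

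In VD the call of col-36 (log2 difference 4.05 ± 1.08) turned to -0.12 without VD 78, and in DD (2.97 ± 1.09), where 8 of 13 alternatives kept it, to -0.51 without DD 83. In PVD it was lost without PVD 62 (adjusted p = 0.564). The genes col-43 and col-158 were high in the same VD library, with 801 and 796 CPM in VD 78 and at most 15.5 and 24.7 CPM in the other 3. In AWB libraries col-43 had 28.3, 139.8, 381, 319 and 116 CPM, and col-123, col-163 and col-172 were likewise called higher there against both sets of libraries under every alternative that tested them. No source used here gives the stage of the animals behind each library, and its part was not tested.

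**Figure D5:**
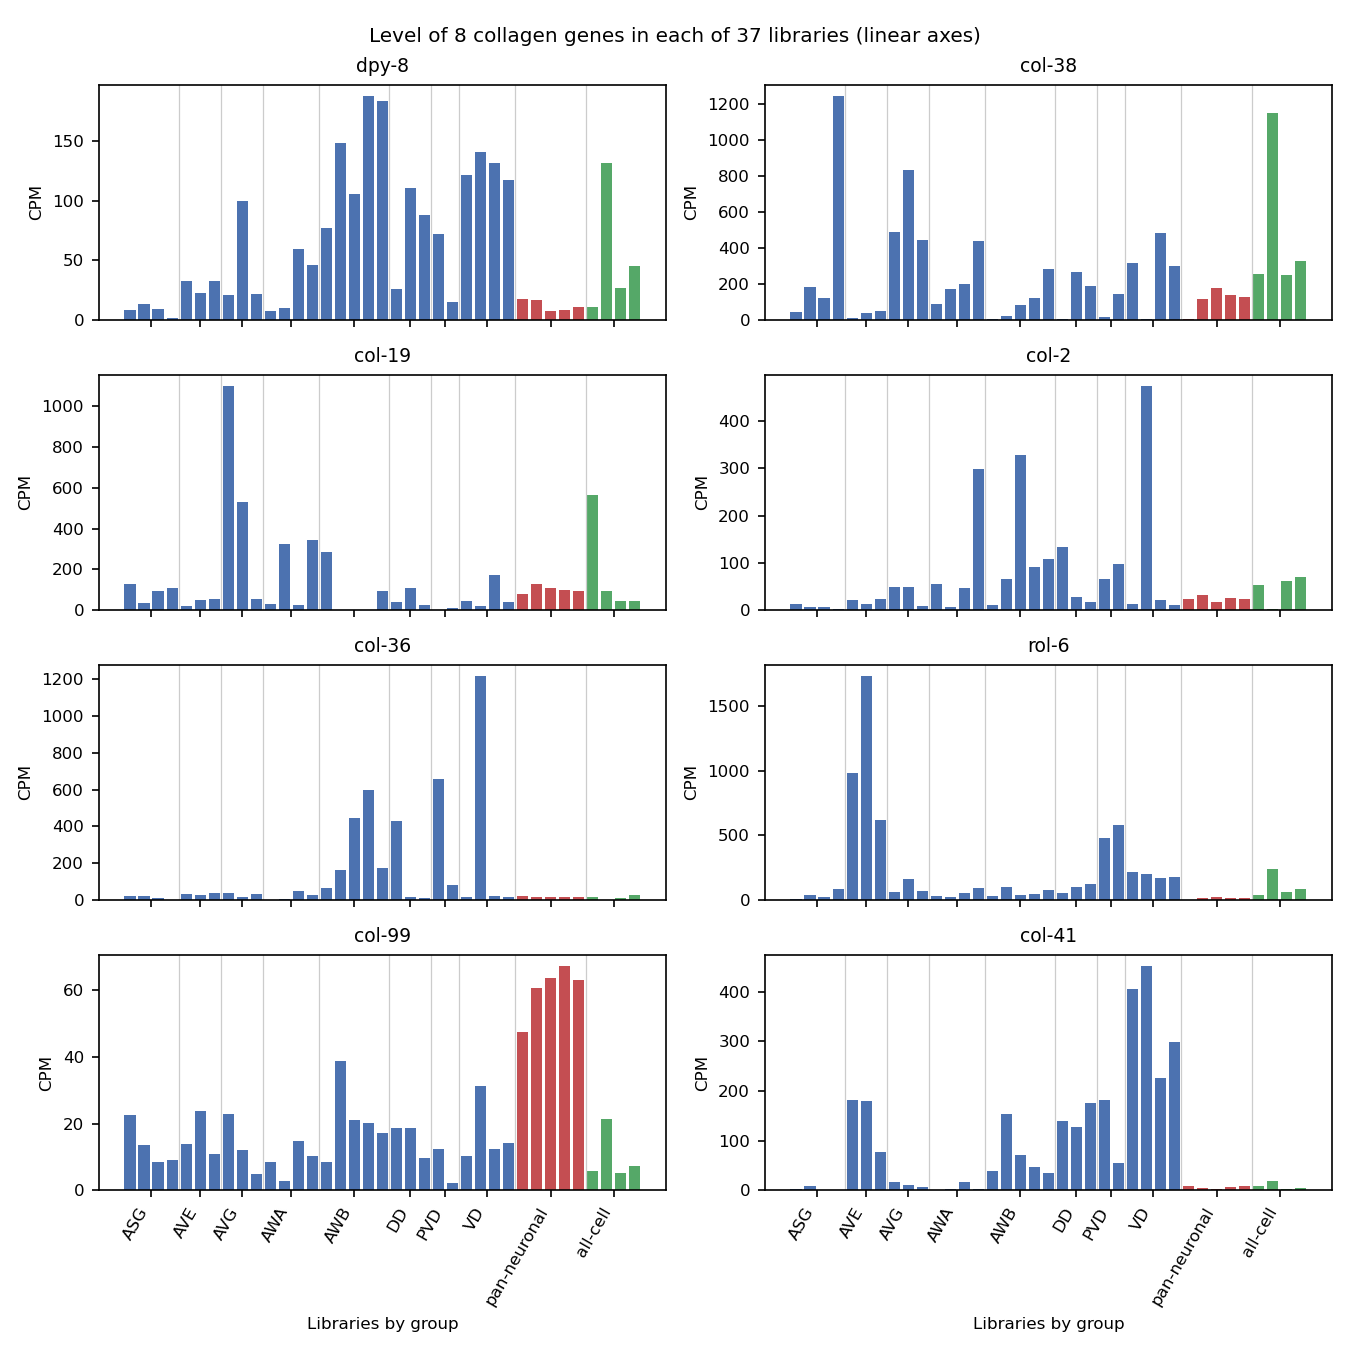
Level in CPM (vertical axes, linear and different in each panel) of dpy-8, col-38, col-19, col-2, col-36, rol-6, col-99 and col-41 in each of 37 libraries, ordered by group; blue bars are sorted types, red pan-neuronal and green all-cell libraries. Bars of col-41 are high throughout VD (227 to 452 CPM) and rol-6 throughout AVE and PVD, whereas col-38, col-19, col-2 and col-36 vary widely between libraries of 1 group, and col-99 is highest in the pan-neuronal group.

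The gene col-41 (chromosome X, 15175032 to 15176481, minus strand), a collagen gene under BMP signalling in the epidermis, was high in every library of 5 types. VD libraries had 406, 452, 227 and 299.7 CPM, DD libraries 139, 128 and 176 CPM, AVE libraries 182, 179 and 76.2 CPM, PVD libraries 181 and 54.3 CPM and AWB libraries 39.4, 154, 70.6, 46.5 and 34.2 CPM. Pan-neuronal libraries had 8.41, 4.50, 3.33, 6.12 and 7.86 CPM and all-cell libraries 8.35, 17.7, 3.38 and 3.85 CPM, below every library of those 5 types. ASG, AWA and AVG libraries had at most 7.9996, 16.4 and 15.8 CPM.

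Against all-cell libraries col-41 was higher by a log2 difference of 5.44 ± 0.77 in VD (adjusted p = 9.31e-06), 4.21 ± 0.76 in DD, 4.19 ± 0.76 in AVE, 3.90 ± 0.80 in PVD and 3.11 ± 0.71 in AWB. These calls were kept under every alternative except in PVD, where it was lost without PVD 62 (adjusted p = 0.063). Against pan-neuronal libraries the VD difference was 5.82 ± 0.70 (adjusted p = 7.41e-08). Its deposited length matched the annotated one.

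The genes col-54 and col-90 were called higher in the same 5 types against pan-neuronal libraries. For col-54, VD libraries had 68.6, 66.8, 47.9 and 59.3 CPM, against 1.052, 1.502, 4.81, 1.18 and 2.05 CPM in pan-neuronal and 0.835, 6.20, 0 and 5.78 CPM in all-cell libraries, without overlap (log2 difference 4.22 ± 0.72, adjusted p = 0.000134 against all-cell libraries). For col-90 VD libraries had 342, 469, 248 and 338 CPM, against 33.4, 75.3, 16.3 and 26.0 CPM in all-cell libraries, without overlap (log2 difference 3.22 ± 0.68, adjusted p = 0.00118). In VD against all-cell libraries col-156, col-166 and col-169 were also called higher under every alternative, by 2.45 ± 0.63, 2.07 ± 0.48 and 1.88 ± 0.51.

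The gene col-99 (chromosome IV, 137974 to 147919, minus strand) is a member by its symbol but encodes a transmembrane collagen that guides axons rather than a secreted cuticle collagen. It had 47.6, 60.7, 63.7, 67.3 and 63.2 CPM in pan-neuronal libraries, against 5.85, 21.3, 5.07 and 7.23 CPM in all-cell libraries, without overlap (log2 difference 2.65 ± 0.51, adjusted p = 5.78e-05). It was called lower in all 8 types than in pan-neuronal libraries, from -2.88 ± 0.73 in PVD to -1.51 ± 0.46 in AWB. The highest value in any type was 38.9 CPM in AWB 51. The calls in ASG, AVG, AWA, DD and VD were kept under every alternative, and those in AVE, PVD and AWB were lost in 1 alternative each (adjusted p = 0.0516 without AVE 42, 0.0578 without PVD 63 and 0.0545 with library totals alone).

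Another member high in pan-neuronal libraries was col-153 (chromosome V, 10949811 to 10951821, plus strand). It had 27.1, 20.2, 19.6, 17.7 and 22.9 CPM there, against 5.85, 3.55, 4.51 and 4.34 CPM in all-cell libraries, without overlap (log2 difference 2.22 ± 0.60, adjusted p = 0.00204). It was called lower in ASG, AWA, DD, PVD and VD than in pan-neuronal libraries, with VD at 1.81, 4.87, 4.28 and 1.98 CPM (log2 difference -2.74 ± 0.59, adjusted p = 0.000241). The PVD call was lost with library totals alone (adjusted p = 0.063) and without PVD 63 (adjusted p = 0.111).

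Levels of members can be compared only per length. Of the 10 members with the highest mean CPM over groups, col-125 was the highest per kilobase of deposited length, at 429 CPM per kb, followed by dpy-5 at 371 and col-107 at 361 CPM per kb, and col-10 had 268 CPM per kb. Per kilobase of annotated exon length, chosen after seeing the data, the order over all members was col-10 at 675, col-144 at 598, col-17 at 499, col-125 at 436 and dpy-5 at 407 CPM per kb, so the order depends on the gene model. For col-10, VD libraries had 1532, 1566, 1422 and 1313 CPM, DD libraries 766, 1245 and 949 CPM and AWB libraries 558, 1169.9, 1861, 572 and 531 CPM, against 48.4, 106, 140.3, 160.1 and 152 CPM in pan-neuronal libraries. These groups did not overlap (log2 difference 3.59 ± 0.49, adjusted p = 5.56e-07 in VD). In VD against all-cell libraries, which had 522, 961, 388 and 479 CPM, the log2 difference was 1.31 ± 0.49 and did not pass the test (adjusted p = 0.0514), although the libraries did not overlap.

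For col-17, pan-neuronal libraries had 10.8, 46.1, 56.6, 50.1 and 51.6 CPM, against 503, 1709.8, 349 and 457 CPM in all-cell libraries, without overlap (log2 difference -4.13 ± 0.55, adjusted p = 4.03e-07). It was called higher in all 8 types than in pan-neuronal libraries under every alternative, from 2.91 ± 0.52 in ASG to 4.90 ± 0.57 in VD. Its deposited length was 1.77 times the annotated one, as stated above. The gene col-125, of matched length, had 1112, 1114, 917 and 881 CPM in VD libraries, against 28.1, 158.1, 234, 183 and 186 CPM in pan-neuronal libraries, without overlap (log2 difference 2.67 ± 0.50, adjusted p = 4.63e-05).

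Single members stood out in 2 sensory types. For col-95 (chromosome III, 11703994 to 11705091, plus strand), ASG libraries had 148, 130.4, 78.3 and 75.7 CPM, against 13.1, 8.79, 4.81, 6.59 and 4.10 CPM in pan-neuronal and 19.2, 9.75, 1.69 and 2.89 CPM in all-cell libraries. No other library reached the lowest ASG value, the nearest being AVG 43 at 38.7 CPM. The log2 difference was 3.83 ± 0.75 from pan-neuronal libraries (adjusted p = 0.000111) and 3.75 ± 0.85 from all-cell libraries (adjusted p = 0.000719).

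For col-68 (chromosome II, 104534 to 105829, plus strand), AWA libraries had 298, 91.2, 20.3 and 53.04 CPM, against 15.5, 11.6, 8.89, 7.30 and 7.52 CPM in pan-neuronal and 15.04, 7.98, 7.89 and 9.64 CPM in all-cell libraries. All 4 AWA values exceeded those of both other groups, and AWA 17, with the lowest summed collagen share of its group, had the highest. The log2 difference was 3.49 ± 0.57 from pan-neuronal libraries (adjusted p = 1e-05) and 3.51 ± 0.64 from all-cell libraries (adjusted p = 8.1e-05). The calls of col-95 in ASG and col-68 in AWA were kept under every alternative.

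The gene col-117 (chromosome IV, 8822962 to 8824195, minus strand) was low in ASG libraries, at 10.6, 7.20, 8.41 and 16.3 CPM, against 27.1, 67.6, 113, 95.1 and 79.6 CPM in pan-neuronal and 71.8, 168, 26.5 and 31.8 CPM in all-cell libraries. The ASG libraries lay below all of these, with log2 difference -2.84 ± 0.63, adjusted p = 0.00045 from pan-neuronal and log2 difference -2.79 ± 0.65, adjusted p = 0.000912 from all-cell libraries, both kept under every alternative. In AWB libraries it had 70.1, 233, 632, 128.7 and 265 CPM and was called higher than in pan-neuronal libraries (log2 difference 1.78 ± 0.53), although AWB 50 lay within their range.

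The gene col-50 (chromosome I, 3651236 to 3652702, minus strand) was called higher in AWA than in pan-neuronal libraries under every alternative (log2 difference 4.53 ± 1.32, adjusted p = 0.00649), although AWA 18 had no counts. AWA libraries had 139.9, 0, 70.5 and 186 CPM and VD libraries 0.987, 196, 2.30 and 0.441 CPM, against 2.89, 3.003, 5.92, 6.35 and 3.07 CPM in pan-neuronal and 49.3, 0, 53.5 and 80.0 CPM in all-cell libraries. VD 78 was the highest of the 37 libraries and the other VD libraries were at or below the lowest pan-neuronal one, and all-cell 28 had no counts.

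The members col-124, col-129 and col-140, high in single libraries, were called in no comparison. For col-129 (chromosome IV, 12108734 to 12110439, minus strand), AVG libraries had 1230.3, 638 and 40.7 CPM, AWA libraries 105, 736, 68.8 and 749 CPM and AWB libraries 522, 0, 3.53, 7.15 and 319 CPM, against 163, 259, 218, 215 and 223 CPM in pan-neuronal and 1068, 241, 112 and 137 CPM in all-cell libraries. AVG 43, AVG 44, AWA 18, AWA 20, AWB 50 and all-cell 27 were far above the pan-neuronal libraries, as they were for col-19, and AWB 51 to 53 and both PVD libraries were far below.

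The gene col-87 (chromosome II, 14089851 to 14094690, minus strand) was the other member called lower in all 8 types than in pan-neuronal libraries. Its deposited length was 1647 bases against 1871 annotated, and over all genes of shorter deposited length the median log2 difference from pan-neuronal libraries was also below 0, at -0.92 in VD and -0.96 in AVE. It had 12.9, 13.5, 18.1, 16.5 and 21.5 CPM in pan-neuronal libraries, no counts in any AVG, AWB or PVD library and at most 4.28 CPM in the libraries of the other types. All-cell libraries had 17.5, 1.77, 5.63 and 1.93 CPM and overlapped the pan-neuronal ones.

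Over all tested members, 48 were called higher in 0 of the 8 types against pan-neuronal libraries, and 4 in all 8, namely col-17, col-92, col-94 and sqt-1. With neighbouring genes as 1 row, col-92 and col-94 were called in none of the 8 (adjusted p from 0.0537 in VD to 0.789 in AVE). That row held the highest count of col-92, col-93 and col-94 in the other 32 libraries but their sum in pan-neuronal ones. This raises the pan-neuronal side, so the lost calls cannot show that col-92 and col-94 did not differ. Of the 4, col-17 alone was kept in all 8 types under every alternative, but its level and those of col-92 and col-94 are uncertain, as stated above. AVG had the highest group mean for 54 members and VD for 48, and ASG had the lowest for 54, pan-neuronal libraries for 41 and PVD for 37. PVD and AVG had 2 and 3 libraries, so their means are less certain. None of these counts was made over all genes, so they describe the members alone. The 8 comparisons share the pan-neuronal libraries, so their calls are not independent of each other.

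The member with the highest level per kilobase differed from group to group. On deposited length it was col-38 in ASG (432 CPM per kb), rol-6 in AVE, col-140 in AVG (859), col-129 in AWA (311), col-144 in AWB (482), col-125 in DD and VD (613 and 1052) and rol-6 in PVD. In pan-neuronal libraries it was col-124 (181 CPM per kb) and in all-cell libraries col-73 (570). On annotated length it was unchanged in ASG, AVE and AVG, and became col-92 in AWA (397), col-10 in AWB (971), DD (1022), PVD and VD (1509), col-139 in pan-neuronal (203) and col-17 in all-cell libraries (690).

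Genes that act with the cuticle collagens were also called higher in VD, AWB and DD. Over all genes, 27.7% were called higher and 28.5% lower in VD, 19.6% and 24.1% in AWB, 18.3% and 20.8% in DD, 11.7% and 19.7% in AVG, and 16.8% and 20.8% in ASG. Of 12 tested processing and crosslinking genes, 9 were higher and 1 lower in VD and in AWB, 5 and 0 in DD, 2 and 2 in AVG, and 2 and 3 in ASG, against pan-neuronal libraries. Of 11 cuticlins and apical matrix genes, 8 were higher and 1 lower in VD, 6 and 1 in AWB, 6 and 0 in DD, 2 and 0 in AVG, and 0 and 2 in ASG. Of 13 moulting and epidermal regulators, 10 were higher and 0 lower in VD, 6 and 1 in AWB, 9 and 0 in DD, 3 and 0 in AVG, and 0 and 1 in ASG. The median log2 differences of these 3 lists in VD were 1.26, 3.07 and 2.58, against 0.08 over all genes.

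The gene noah-2, an apical matrix protein of the epidermis and also 1 of the epidermal markers, had 297, 422, 298 and 274 CPM in VD libraries, against 13.4, 17.2, 19.3, 12.9 and 14.7 CPM in pan-neuronal libraries, without overlap (log2 difference 4.38 ± 0.68, adjusted p = 3.97e-06). The gene dpy-31, a metalloprotease that cleaves procollagens, had 25.3, 35.8, 30.9 and 26.7 CPM in VD libraries, against 4.73, 4.50, 3.70, 4.71 and 4.78 CPM in pan-neuronal libraries, without overlap (log2 difference 2.70 ± 0.46, adjusted p = 1.32e-05). The gene blmp-1, a transcription factor of the epidermis, had 87.5, 129.6, 77.4 and 106.9 CPM in VD, against 6.05, 9.65, 7.78, 9.89 and 11.6 CPM in pan-neuronal libraries, also without overlap. The cuticle collagens outside the rule behaved less evenly, with 4 of 7 higher and 1 lower in VD, and 1 and 1 in ASG.

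Basement membrane collagens, which are not cuticle genes, moved too. The gene let-2, a chain of type IV collagen, had 585, 1462, 1178 and 748 CPM in VD and 299.5, 136, 1391 and 417 CPM in ASG libraries, against 108, 112, 165, 109.9 and 92.9 CPM in pan-neuronal libraries. All VD and ASG values exceeded every pan-neuronal one except that of ASG 14. The gene was called higher in 7 of 8 types and emb-9, the other chain, in 6. The gene cle-1, of type XVIII collagen, was called higher in DD (log2 difference 1.202 ± 0.36, adjusted p = 0.00834) and lower in 6 types, and in VD it had 0.73 ± 0.34 (adjusted p = 0.0635). It was higher in pan-neuronal than in all-cell libraries (log2 difference 2.73 ± 0.37, adjusted p = 5.94e-07).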

How the data were processed

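Raw counts per gene were deposited by the authors in 1 table of 37 libraries with gene lengths on the WS274 annotation. Per the labels' protocols, cells were sorted on a FACSAria III into Trizol LS, with libraries from the SoLo Ovation kit of Tecan. STAR, SAMtools and featureCounts are named in the submitters' processing notes; versions, settings, strandedness, duplicate handling and the genome build were not given in the sources used here. Gene symbols came from a gene name table (27849 of 30631 genes matched) and positions and exon lengths from WBcel235 (30584 matched).

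The counts were fitted with edgeR 4.0.16 (R 4.3.3): TMM scaling, filterByExpr by group, and 1 quasi-likelihood fit over all libraries, with 17 comparisons and a test of any difference. P-values were adjusted by Benjamini-Hochberg over 15181 genes, with a threshold of 0.05. Errors of log2 differences are standard errors from the F statistic. CPM used the TMM factors. Whether libraries of a group are separate cultures is not stated; p-values cover only the spread between these libraries, which may be technical. None of the 54 pairs of libraries within groups agreed within sampling noise, by a chi-square per degree of freedom over genes. It was 2.446 to 3.97 among pan-neuronal 7, 10, 11 and 12, and 34.75 to 41 between each of these and pan-neuronal 1. All-cell 29 and all-cell 30 were at 3.39, and the other all-cell pairs at 21.65 to 45.91. The fit took all libraries of a group as separate. The fit was tested on simulated counts for VD against pan-neuronal libraries. It recovered 50% of changes of 4 times and 8.99% of changes of 2 times, so a member not called may still differ. Alternatives were DESeq2 1.42.0, its size factors, library totals, no low-count filter, the compared groups alone, without AWA 20 and AWB 51, and each library left out. An alternative that did not test a gene was not counted for it. Neighbouring genes as 1 row (col-92, col-93 and col-94, and col-10 and col-144), genes of matched length (within 5%), and levels per kilobase of annotated length were chosen after seeing the data. Each such row took the highest count in the other 32 libraries and the sum in pan-neuronal ones.

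The members, lists and comparisons were chosen with earlier results of these data known. Genes named are those with an adjusted p under 0.05, a mean of 20 CPM or more on the higher side and libraries that do not overlap, the 8 highest and 5 lowest log2 differences per comparison, plus the 10 members of highest mean CPM, every dpy, rol, sqt and bli member and the adult and dauer subsets. The single highest member of each group, the other subset members and some genes that act with the collagens were also taken. Only some of all these are described. Members outside these rules, such as col-87 and col-140, are described as well.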

Additional observations from a re-analysis of the deposited data

Results flagged for a closer look

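In the 6 groups of 4 or 5 libraries, 22 members and the summed share were tested for a library far from the rest, and 27 cases were found. Chance flags about 1 in 20 groups where values are normally distributed, which need not hold for CPM on a linear scale. Members that vary together share the same outlying library, so the cases are not independent. The cause was not tested for any.

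All-cell 28 held the highest level of its group by far for col-17 (1709.8 CPM), dpy-5 (1060.1), dpy-13 (1048), sqt-3 (823), col-38 (1151), col-138 (1308) and col-99 (21.3), and it had 0 CPM of col-40, where the next lowest all-cell library had 44.3 CPM. All-cell 27 stood above its group for col-19 (565 CPM) and col-124 (996 CPM).

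ASG 16 stood above the other ASG libraries for the summed collagen share (2.05% of counts), dpy-5 (986 CPM), col-38 (1248.5 CPM) and col-138 (792 CPM). ASG 14 did so for bli-2 at 53.6 CPM. Pan-neuronal 1 lay below the other pan-neuronal libraries for the summed share (0.323% of counts), col-17 (10.8 CPM), dpy-13 (6.05 CPM), sqt-1 (8.68 CPM) and rol-6 (4.21 CPM).

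VD 78 had 474 CPM of col-2, 425 CPM of col-40 and 19.5 CPM of col-68, with the next VD libraries at 21.6, 11.4 and 7.74 CPM. AWA 20 had 299 CPM of col-2 and AWA 19 had 16.4 CPM of col-41. AWB 54 had 121.95 CPM of bli-1, and AWB 50 had 55.3 CPM of col-7.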

How the results depend on the processing

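With the compared groups alone in the fit, the collagens called became 75 in AVE (55 higher, 20 lower), 104 in AVG (101 and 3) and 75 in PVD (50 and 25) against pan-neuronal libraries, and 27 in ASG (1 and 26), 0 in AVG, 1 in AWA, 18 in AWB (8 and 10) and 21 in PVD (7 and 14) against all-cell libraries. With DESeq2 they became 23 in AVE (7 and 16), 8 in DD (7 and 1) and 39 in PVD (13 and 26) against all-cell libraries. Without AWA 20 and AWB 51, AWA had 17 calls from pan-neuronal (9 and 8) and 16 from all-cell libraries (1 and 15). With library totals alone the median log2 difference of all genes became -0.73 in ASG and -0.63 in AVG against all-cell libraries and 0.41 in VD against pan-neuronal libraries, and with TMM it was -0.17, -0.24 and 0.08. Among genes of matched length 5.16% of members were called in DD against all-cell libraries, where 11% of genes were higher and 8.1% lower. The cause was not tested. Other counts stayed within 1.5 times those reported under the remaining alternatives that keep all libraries. The share of all genes called was not computed under the other fits or without single libraries. A changed count of members there cannot be told apart from a change in the calls of all genes.

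Leaving out 1 library at a time, the counts against pan-neuronal libraries ran from 15 to 23 in ASG, 19 to 28 in AVE, 30 to 64 in AVG, 17 to 49 in AWA, 49 to 66 in AWB, 43 to 53 in DD, 6 to 30 in PVD and 73 to 94 in VD. Pan-neuronal against all-cell gave 35 to 69. Against all-cell libraries they ran from 28 to 64 in ASG, 4 to 18 in AVE, 1 to 14 in AVG, 4 to 13 in AWA, 20 to 41 in AWB, 3 to 7 in DD, 2 to 14 in PVD and 11 to 37 in VD, and any difference gave 99 to 131. The mean share ran from 0.470% to 1.03% in ASG, 1.04% to 1.29% in AVE, 1.92% to 3.60% in AVG, 0.934% to 1.90% in AWA, 1.51% to 1.87% in AWB, 1.44% to 2.02% in DD, 0.805% to 2.05% in PVD, 2.73% to 3.09% in VD, 1.78% to 2.77% in all-cell libraries and 0.568% to 0.664% in pan-neuronal ones.

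Of 345 calls of named members, 165 were kept under every alternative run. Of 4695 recomputed values, 4177 kept the call, 494 kept only the direction and 24 changed direction. Leaving out 1 library at a time, the log2 differences that changed direction ran as follows. In DD against pan-neuronal, with the low end without DD 83, they ran from -0.51 to 3.53 for col-36. In PVD against all-cell, with the low end without PVD 62, they ran from -0.37 to 4.78 for col-114, -3.14 to 6.69 for col-163 and -2.66 to 6.97 for col-172. In PVD against pan-neuronal, with the low end without PVD 62, they ran from -0.95 to 4.20 for col-114, -4.71 to 5.13 for col-163 and -4.84 to 4.79 for col-172. In VD against all-cell, with the low end without VD 78, they ran from -0.87 to 4.82 for col-114, -0.10 to 5.12 for col-123, -0.0584 to 4.62 for col-43 and -0.76 to 3.54 for col-84. In VD against pan-neuronal, with the low end without VD 78, they ran from -1.27 to 4.02 for col-114, -1.23 to 3.82 for col-123, -1.08 to 4.56 for col-163, -0.17 to 4.33 for col-172, -0.64 to 2.77 for col-2, -0.12 to 4.45 for col-36, -0.85 to 3.47 for col-40, -0.56 to 3.98 for col-43, -1.14 to 4.38 for col-44, -1.68 to 3.94 for col-50 and -0.35 to 3.96 for col-84. With neighbouring genes as 1 row, which raises the pan-neuronal side as stated above, col-92 and col-94 in ASG against pan-neuronal libraries each became -0.52. No paired analysis was possible because the groups compared share no library numbers. The low totals of some libraries limit what can be called for members near the count threshold.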
